A study of Drosophila melanogaster with 2 samples.

Results

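The 10 genes described here encode core proteins of Drosophila heterochromatin, namely the HP1a gene, HP1b, HP1c, Su(var)3-9, egg, G9a, wde, Su(var)3-7, Hmr and Lhr. They were taken as a named list out of 13945 protein-coding genes on chromosome arms 2L, 2R, 3L, 3R, 4 and X, and the question was whether CG17802 was found at their promoters. CG17802 (symbol Nnk), a zinc finger protein with a ZAD domain, was profiled by chromatin immunoprecipitation and sequencing (ChIP-seq) in whole Drosophila melanogaster embryos, male and female pooled, collected at 0 to 14 h. Both libraries came from 1 transgenic fly line that stably carries CG17802 fused to GFP at its C terminus, and the chromatin was sonicated to 200 to 800 bp. They are biological replicates 1 and 2 of 1 group, with no second condition. One label field calls the libraries an input control, whereas the antibody and assay fields name CG17802 and transcription factor ChIP-seq.

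Heterochromatin forms where histone H3 is methylated at lysine 9 and the mark is read by HP1 proteins, which in turn recruit more methyltransferase and compact the repeat-rich DNA around the centromeres. In flies many of its proteins were found as suppressors of position-effect variegation, the patchy silencing of a gene placed next to heterochromatin. Several ZAD zinc finger proteins of flies are themselves associated with heterochromatin. A peak at the promoter of one of these genes is a measure of where CG17802 lies on the DNA. It does not measure whether the gene's expression depends on CG17802.

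The authors deposited 4 peak lists: 30000 peaks and background regions for each replicate, 30000 for both replicates pooled, and a set of 3535 peaks that passed a threshold on reproducibility between replicates. Each peak has a summit and a signal, whose scale is the authors'. All 3535 thresholded peaks are the 3535 highest of the pooled list, with the same intervals and signals, whereas each replicate list has signals of its own, so positions in a list are compared by rank (rank 1 is the highest signal). Signal in the thresholded set ran from 109.8 to 22497 with a median of 186.5, and the lowest signal listed was 33.7 in the pooled list, 14.7 in replicate 1 and 23.8 in replicate 2. Most intervals have a fixed width, 330 bp in the pooled list, and their summit is the middle of the interval. Read depth per library is unknown. A gene was counted as having a promoter summit where a summit lay within 500 bp of any of its annotated transcription start sites (TSSs).

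Of the 10 genes, 3 had a promoter summit in the thresholded set: HP1b, Su(var)3-9 and Su(var)3-7. This is 30% of the list, beside 16.9% of all protein-coding genes (2352 of 13945). The promoters of the list are unusual in their layout. For 9 of the 10 genes, all but egg, the nearest TSS upstream on the other strand lay within 500 bp, so that the gene starts back to back with a neighbour, against 29.6% of all protein-coding genes. Among genes with such a divergent neighbour, 31.1% had a thresholded promoter summit, against 10.9% of genes without one. Within the divergent class the list stood at 3 of 9 (33.3%), next to that 31.1%. The comparison with divergent genes was chosen after the layout of these promoters had been seen.

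**Figure D1:**
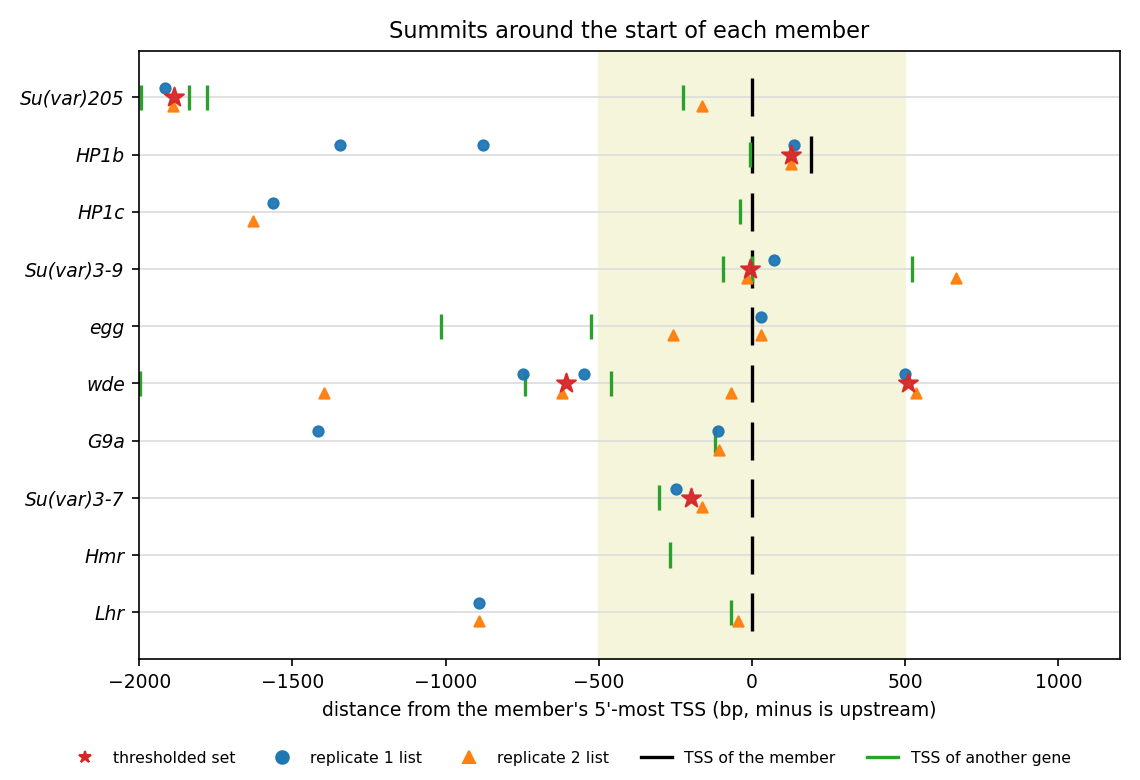
Summits of the thresholded set (stars) and of the replicate lists (circles and triangles) by distance in bp from the 5'-most TSS of each gene, minus being upstream; black ticks are TSSs of the gene, green ticks those of other genes, and the shaded band is 500 bp on each side. Stars fall in the band for HP1b, Su(var)3-9 and Su(var)3-7. The stars of wde lie at 508 bp, just outside it, and at -608 bp. The top row, Su(var)205's, is the HP1a gene, with a star at -1887 bp.

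All 3 thresholded promoter peaks had a signal below the median of this set. Their ranks were 2083 for HP1b, 2689 for Su(var)3-9 and 3406 for Su(var)3-7 among 3535 peaks, so none was among the 1767 highest. Across the 2352 protein-coding genes with a thresholded promoter summit the median signal was 212.6, with quartiles of 144.8 and 380.1. HP1b had a signal of 165.5, above 34.7% of those genes. Su(var)3-9 had 135.8, above 19.3% of them, and Su(var)3-7 had 112.7, above 2.21%.

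**Figure D2:**
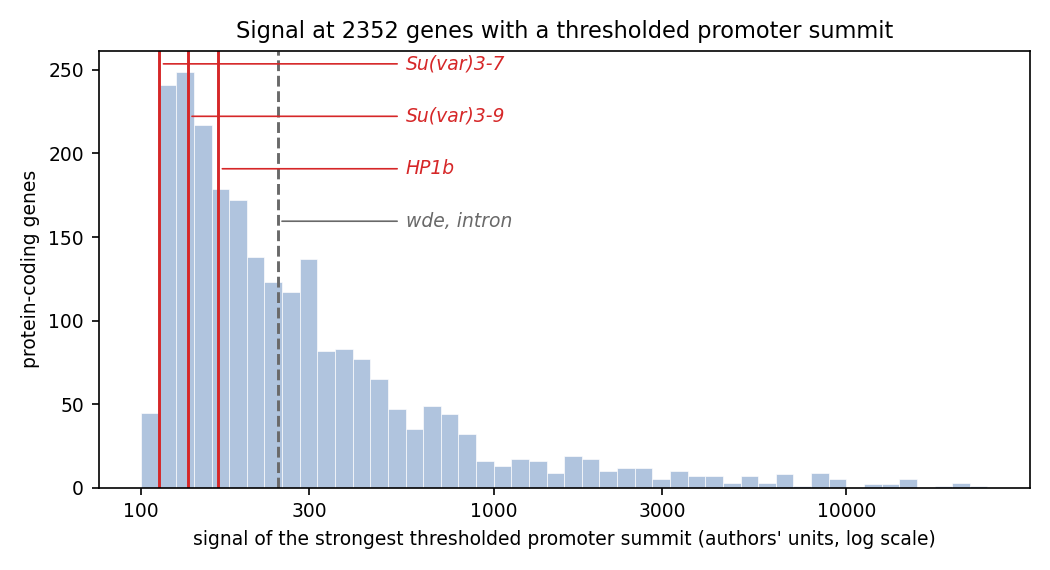
Number of protein-coding genes (y axis) by the signal of their highest thresholded promoter summit (x axis, authors' units, log scale), for 2352 genes. The red lines of Su(var)3-7 (112.7), Su(var)3-9 (135.8) and HP1b (165.5) all lie left of the median of 212.6, and the dashed line marks the intronic peak of wde (244.3).

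The HP1 family has 3 members here. HP1a, Su(var)205's product, is the founding reader of methylated H3 lysine 9, HP1b is a paralog found in heterochromatin and euchromatin, and HP1c is a paralog that lies mostly in euchromatin. Of these only HP1b had a thresholded promoter summit. HP1b (FBgn0030082, X:9081063-9082746, plus strand, dm6) has 2 annotated TSSs, and the peak X:9081024-9081353 had its summit between them, 65 bp upstream of the second, in the 5' UTR of the transcript that starts at the first. The neighbour CG7246 starts 6 bp from the first HP1b TSS on the opposite strand, and its TSS was farther from the summit, at 132 bp. Both replicates listed the peak at rank 2313, with a signal of 44.2 in replicate 1 and 113.5 in replicate 2. Their summits were 11 bp apart, against a median of 20 bp over 1787 thresholded promoter peaks. Those are the peaks with a summit of each replicate within 500 bp. The gap is between the nearest summit of each replicate, and these need not be the same peak. HP1b was thus the member placed most alike by the replicates in both rank and position among those with a thresholded promoter summit.

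Sequences were searched on both strands for 6 short motifs within 100 bp of each summit, and matches are in capitals in the stretches printed here (dm6, plus strand, read 5' to 3' from the RefSeq genome). The motifs were the DRE TATCGATA, Motif 1 GGTCACAC, the BEAF-32 core CGATA, the TATA box TATAAA, the E-box CAGCTG and the GAGA element GAGAG; every DRE also holds the BEAF-32 core, on both strands. Among 1814 thresholded promoter summits, 10.7% had a DRE in this window, 6.73% Motif 1, 42.7% the BEAF-32 core, 33.7% TATA, 12.2% the E-box and 18.6% GAGA. Around the starts of all 13945 protein-coding genes the shares were 7.84, 6.76, 39.4, 29.2, 13.8 and 22.5%. HP1b is shown by the 30 bases from the summit on (X:9081189-9081218), which hold a GAGA element next to a BEAF-32 core, 17 and 22 bp from the summit, the only matches in its window. HP1c is shown by the whole stretch between its TSS and that of its neighbour vret (3R:22745582-22745619).
HP1b: atgcgtttactggccaaGAGAGCGATAgtt
HP1c: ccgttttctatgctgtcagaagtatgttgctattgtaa

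HP1c (FBgn0039019, 3R:22745620-22746605) had no promoter summit in any of the 4 lists, although it too starts back to back with a neighbour, 39 bp from vret, a Tudor domain gene of the piRNA pathway. The stretch of 38 bases between them held none of the 6 motifs. It is much shorter than the 201 bases searched around summits, so this absence says little about the promoter. The nearest summit in the replicate lists was inside the coding sequence of vret, 1562 bp from the HP1c TSS in replicate 1 (rank 10301) and 1629 bp in replicate 2 (rank 11462). The nearest thresholded summit was 5078 bp away, nearest to rumi.

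The HP1a gene (FBgn0003607, 2L:8209626-8211122) had a promoter summit in the pooled list (rank 4264, signal 95.8) and in replicate 2 (rank 3996, signal 75.5), and none in replicate 1. It was the first member past the thresholded set in the pooled list, Su(var)3-7 at rank 3406 being the last inside. The pooled summit lay 155 bp from the HP1a TSS but 70 bp from that of Ssb-c31a, which encodes a homolog of the transcription coactivator PC4 and starts 225 bp away on the other strand. A far stronger thresholded peak (2L:8212894-8213127, signal 739.5, rank 296) had its summit 1887 bp upstream of the HP1a gene. That peak belongs to other promoters by distance, since its summit was 50 bp from a TSS of CG8360, and both replicates listed it, at ranks 324 and 302.

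Su(var)3-9 (FBgn0263755, 3R:15259864-15263458) encodes the main methyltransferase of H3 lysine 9 in pericentric heterochromatin. It shares its TSS and first exon with eIF2gamma, a subunit of a translation initiation factor, and starts 94 bp from Set, which encodes a histone chaperone, on the other strand. The thresholded peak (3R:15263301-15263630) had its summit 8 bp upstream of the shared TSS and 86 bp from that of Set, so the peak cannot be assigned to 1 of the 3 genes. Replicate 1 placed it at rank 2034 (signal 48.7) and replicate 2 at rank 3076 (signal 91.1). The replicates' summits were 90 bp apart, a larger gap than at 90.4% of the 1787 promoter peaks, with the replicate 1 summit 72 bp inside the shared 5' UTR and the replicate 2 summit 18 bp upstream. The stretch between the TSSs (3R:15263459-15263551) is shown because it holds 2 complete DREs, the first of them beginning 6 bp from the pooled summit, and the start of another at its end. The stretch between G9a and CG3038 (X:245857-245977) is shown beside it as a divergent methyltransferase promoter without a thresholded summit.
Su(var)3-9: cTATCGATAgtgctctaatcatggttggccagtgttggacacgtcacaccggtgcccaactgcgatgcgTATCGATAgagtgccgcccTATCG
G9a: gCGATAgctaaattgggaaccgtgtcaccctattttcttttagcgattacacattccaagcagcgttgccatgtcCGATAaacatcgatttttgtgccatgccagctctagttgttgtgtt

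Within 100 bp of the Su(var)3-9 summit there were 3 DREs, the last beginning 81 bp away and running across the TSS of Set. It was the only one of the 1814 thresholded promoter summits with 3 or more (0.0551%), and 5 of 13945 gene starts had as many (0.0359%). Of those 5, 3 are at this same promoter (Su(var)3-9, eIF2gamma and Set), and the other 2 are the starts of wts and CDK2AP1. This count was made after the matches had been seen. A match of letters is not a measured site of DREF or of any other factor.

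G9a (FBgn0040372, X:245978-254650), which encodes a methyltransferase that acts mainly in euchromatin, had no thresholded promoter summit. Its summit in the pooled list ranked 6121 (signal 73.2) and lay 99 bp from its TSS and 23 bp from that of CG3038, which starts 122 bp away on the other strand. The replicates put it at rank 16810 (signal 18.5) and 7416 (signal 47.9), both closer to CG3038, at 10 and 15 bp. There were 2 BEAF-32 cores in its window and no DRE. Its nearest thresholded summit was 70208 bp away, the longest such distance of the 10 genes.

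egg (FBgn0086908, 2R:24775534-24779901) encodes the fly SETDB1, a methyltransferase known for silencing chromosome 4 and for its role in the germline. It was the only member without a divergent TSS within 500 bp, its nearest one being 1016 bp away. Its summit lay 29 bp inside the gene in the pooled list, at rank 7114 (signal 66.4), with no other gene's TSS within 500 bp. The replicates placed the summit at the same base, 28 bp from the TSS, at rank 7741 (signal 24.2) and rank 10533 (signal 39.6). Replicate 2 also listed a lower summit 257 bp upstream (rank 17661, signal 30.9), in the coding sequence of Lcp9 and 270 bp from its TSS. These ranks lie far below the thresholded peaks, and the nearest thresholded summit was 13785 bp away.

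wde (FBgn0027499, 2R:10800420-10808938) encodes the homolog of ATF7IP, the partner that egg needs for its activity, and had the strongest of the thresholded peaks whose nearest TSS belonged to one of the 10 genes. That peak (2R:10808265-10808594, signal 244.3, rank 1252) was in an intron of wde with its summit 508 bp downstream of the TSS, so it just missed the promoter definition. Replicate 1 placed the summit 500 bp from the TSS (rank 1191, signal 71.5), on the limit and inside it, and replicate 2 placed it 535 bp away (rank 1266, signal 178.6). Among the 3535 highest peaks, wde therefore had a promoter summit in replicate 1 and not in replicate 2, although both listed the intronic peak there, with summits 35 bp apart. The window of this intronic summit held none of the 6 motifs. A second thresholded peak near wde (signal 141.9, rank 2546) was 608 bp upstream of it and 133 bp from a TSS of CG12935, the divergent neighbour. At the TSSs of wde themselves there were only summits below the threshold, with ranks of 6827 and 11879 in the pooled list and of 6107 and 9880 in replicate 2. Replicate 1 listed none there, the intronic summit being its only one within 500 bp of a TSS of wde.

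**Figure D3:**
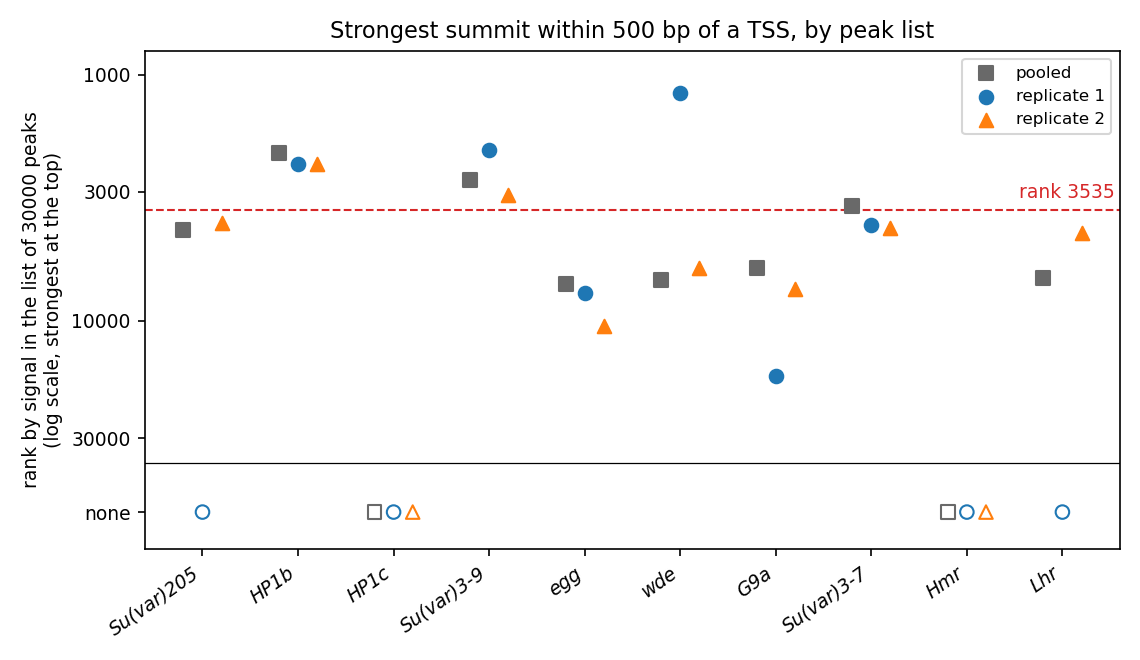
Rank by signal (y axis, log scale, strongest at the top) of the highest summit within 500 bp of a TSS of each gene in the pooled list and in the list of each replicate; open symbols mark genes with no such summit and the dashed line is rank 3535. HP1b and Su(var)3-9 lie above the line in all 3 lists, Su(var)3-7 only in the pooled list, and wde only in replicate 1, through the intronic summit 500 bp away; the first column, Su(var)205's, is the HP1a gene.

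The replicates were compared over the whole lists and over their 3535 highest peaks. Replicate 1 listed a promoter summit for 6 of the 10 genes and replicate 2 for 8, against 45.2% and 47.3% of all protein-coding genes, and the pooled list for 8, against 47%. These lists hold background by design, so a summit in them alone was not counted as bound. The share among divergent genes was computed for the thresholded set alone, so these counts do not account for the layout of the promoters. The HP1a gene and Lhr made the difference between these counts, both listed in replicate 2 and not in replicate 1, as were 12.6% of all protein-coding genes, while 10.5% were listed in replicate 1 alone. The replicates also differed at wde. It was counted in replicate 1 only through the intronic summit 500 bp away, and in replicate 2 through summits 141 and 69 bp from its TSSs. Among the 3535 highest peaks the members counted were HP1b, Su(var)3-9 and wde in replicate 1 (3 genes, background 16.5%) and HP1b and Su(var)3-9 in replicate 2 (2 genes, background 16.8%). The 3535 highest pooled peaks are the thresholded set itself, so their 3 members and background of 16.9% are the same by construction. HP1b and Su(var)3-9 were thus high in both replicates, as were 77.0% of the 2352 genes with a thresholded promoter summit. Su(var)3-7 was among the highest peaks of neither replicate, which held for 42 of those genes (1.79%).

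**Figure D4:**
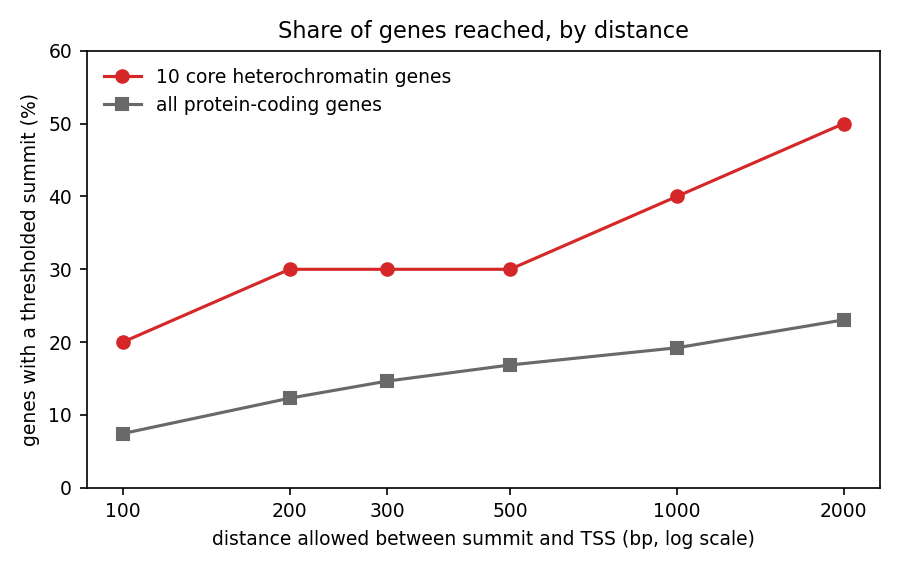
Share of genes with a thresholded summit (y axis, percent) by the distance allowed between summit and TSS (x axis, bp, log scale), for the 10 genes (circles) and for all 13945 protein-coding genes (squares). The list goes from 20% at 100 bp to 50% at 2000 bp and all genes from 7.45 to 23.1%, and each step of the list is a single gene.

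The count of members depends on the distance in steps of 1 gene. At 100 bp it was 2, HP1b and Su(var)3-9, and from 200 to 500 bp it was 3. At 1000 bp wde made it 4, beside 19.2% of all protein-coding genes, and at 2000 bp the HP1a gene made it 5 through the peak at CG8360, beside 23.1%.

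Of the proteins that bind HP1a, Su(var)3-7 (FBgn0003598, 3R:13264364-13270038) encodes a zinc finger protein of pericentric heterochromatin. The summit of its thresholded peak (3R:13263999-13264328) lay in the 303 bp between its TSS and that of Ravus on the other strand, 200 bp from Su(var)3-7 and 103 bp from Ravus. By distance the peak therefore belongs to Ravus first. Replicate 1 placed the summit at rank 4100 (signal 31.4), 55 bp from Ravus, and replicate 2 at rank 4222 (signal 72.3), 139 bp from it. The replicates' summits were 84 bp apart, a larger gap than at 89.4% of promoter peaks. Hmr (FBgn0001206, X:10590920-10595855), a hybrid incompatibility gene whose protein lies with HP1a and Lhr at heterochromatin, had no promoter summit in any list. The only summit within 2000 bp of the gene was at rank 29067 of replicate 2, inside its coding sequence and 2356 bp from its TSS. The 201 bases around the Su(var)3-7 summit (3R:13264064-13264264) are shown, with the stretch between Hmr and its neighbour CG2124 (X:10595856-10596121). The first is the window of a summit and holds no DRE. The second runs from TSS to TSS, has no summit and holds 1 DRE. They differ in length and in how they were chosen, so their matches cannot be set against each other or against the shares given above.
Su(var)3-7: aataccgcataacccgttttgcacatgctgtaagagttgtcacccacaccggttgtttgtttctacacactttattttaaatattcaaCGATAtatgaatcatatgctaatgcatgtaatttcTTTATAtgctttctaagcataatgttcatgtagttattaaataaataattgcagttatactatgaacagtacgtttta
Hmr: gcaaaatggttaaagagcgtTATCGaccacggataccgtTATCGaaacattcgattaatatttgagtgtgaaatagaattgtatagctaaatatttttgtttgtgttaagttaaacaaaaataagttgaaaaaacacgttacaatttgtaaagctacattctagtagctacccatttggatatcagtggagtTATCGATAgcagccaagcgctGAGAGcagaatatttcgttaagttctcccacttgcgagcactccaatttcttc

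The stretch at Hmr, 266 bases long, held 1 DRE, 2 further BEAF-32 cores and 1 GAGA element, whereas the 201 bases at Su(var)3-7 held 1 BEAF-32 core, 12 bp from the summit, and 1 TATA box. The 2 stretches had GC contents of 35.3 and 30.3%, against 54.8% between Su(var)3-9 and Set. The other stretches shown had 46.7% (HP1b), 43.8% (G9a) and 36.8% (HP1c), and no background GC content was computed. No motif of the 6 was thus found at all 3 members with a thresholded promoter summit except the BEAF-32 core. That core is in 42.7% of the windows of thresholded promoter summits and at 39.4% of all gene starts. It also lay within 100 bp of the highest pooled promoter summits of the HP1a gene, egg, wde and G9a, which are below the threshold.

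Lhr (FBgn0034217, 2R:17431032-17432219), the other hybrid incompatibility gene, starts 69 bp from Bap55, a gene for an actin-related subunit of the Brahma remodelling complex. The pooled list had a summit 169 bp from the Lhr TSS and 100 bp from that of Bap55 (rank 6682, signal 69.1). That summit lay in the 5' UTR of Bap55. Replicate 2 had its summit at another place, between both TSSs, 45 bp from Lhr and 24 bp from Bap55, at rank 4388 (signal 70.4). Replicate 1 had none within 500 bp of the Lhr TSS. The nearest summit to Lhr in replicate 1 was 892 bp away, in the coding sequence of Bap55, at rank 7757. None of the 6 motifs lay within 100 bp of the pooled summit.

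Other genes of the heterochromatin pathway were taken as a list of 27, written down with earlier results of these data known. Of these, 9 had a thresholded promoter summit (33.3%, beside the 16.9% of all protein-coding genes). Among the 12 with a divergent TSS within 500 bp it was 5, beside 31.1%, and among the other 15 it was 4, beside 10.9%. Hmt4-20, the methyltransferase of histone H4 lysine 20, had the highest signal (347.7, rank 752), higher than any thresholded promoter peak of the 10 core genes. It was followed by SuUR, which limits replication of heterochromatin in polytene cells (247.8, rank 1223, closer to CG32075), prod, a satellite DNA binding protein (220.4, rank 1426), and Rif1, a regulator of replication timing (171.7, rank 1988). JIL-1, the kinase of H3 serine 10 that limits the spread of heterochromatin, had a signal of 156.3 (rank 2244). The HP1 partners Su(var)2-HP2 (124.7, rank 3020) and HP4 (111.3, rank 3469), the telomere capping gene cav (123.2, rank 3059) and CoRest (115.8, rank 3291, closer to Idh3a) were lower. The summit of Su(var)2-HP2 was found at its promoter in replicate 1 (rank 2561) and not in replicate 2, and Rif1 ranked 915 and 2985 in the 2 replicates. The other 18 genes of that list had none, namely Su(var)2-10, Su(var)3-3, HDAC1, ADD1, HP5, HP6, rhi, sov, D1, Kdm4A, vig, vig2, mu2, XNP, HipHop, moi, Sumo and lwr.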

How the data were processed

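CG17802 ChIP-seq peaks came from 2 biological replicates of 1 fly line. Per the accompanying file descriptions, the authors called peaks and background on dm6 for each replicate and for both pooled, with a control, and derived a reproducibility-thresholded (IDR) set; for the aligner, caller and settings, nothing is stated in the sources used. The signal per peak is the value the authors deposited, with no stated scale, and was used to rank peaks within a list. The deposited −log10 q-value reaches a ceiling shared by 2303 pooled peaks and served only for an alternative ranking. Read depth is unknown.

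Summits are start plus the deposited offset; where the offset fell outside the interval (replicate 1: 1 peak; replicate 2: 4 peaks), the midpoint was taken. Genes and TSSs came from Ensembl release 115 without transposable elements and without Y. RefSeq TSSs were the same for all 10 members. Members, lists and named genes (all members, every gene with a closer TSS, and the related genes with a thresholded summit) were chosen with earlier results of these data known. smt3 was matched as Sumo. No statistical test was run, since there is 1 group; counts stand beside the share of all protein-coding genes. The counting was checked on planted summits. Python 3.11.15 and pandas 2.3.3 were used.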

Additional observations from a re-analysis of the deposited data

How the results depend on the processing

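No paired analysis was possible because the 2 samples form a single group. The thresholded count of 3 members of 10 was 3 at 200 and 300 bp, with 1 TSS per gene and with RefSeq TSSs, 4 at 1000 bp, and 2 at 100 bp, with each summit given to its nearest gene only and where the interval had to overlap a TSS by 1 bp. With the nearest gene only, Su(var)3-9 was counted through a tie, since eIF2gamma has the same TSS, 8 bp from the summit. The count was 5 at 2000 bp and 0 with only the 1767 highest thresholded peaks. Of all protein-coding genes, 7.45% were reached at 100 bp, 12.3% at 200 bp and 14.7% at 300 bp. At 1000 bp the share was 19.2%, and at 2000 bp 23.1%. No such share is given for the 1767 highest peaks. The counts there, of members and of related genes, thus have no background beside them and are not a result about these genes. Without replicate 1 the count of members was 2 (HP1b and Su(var)3-9) and without replicate 2 it was 3, with wde in place of Su(var)3-7. These are the 3535 highest peaks of the other replicate's list. Among the highest peaks at 2000 bp the count was 5 in the pooled list and 4 in each replicate, against 3, 3 in replicate 1 and 2 in replicate 2. For the 27 related genes the count of 9 was 3 with those 1767 peaks, was 7 and 10 without replicate 1 and 2, and lay between 6 and 12 in the other settings. Distances of 100, 300 and 2000 bp were chosen after seeing the data. Taking the summit nearest to a TSS changed 2 of 25 signals, and ranking by −log10 q moved 4 of 25 ranks by more than 1.5 times, all to the shared ceiling at rank 1: HP1b in the thresholded, pooled and replicate 2 lists, and wde in replicate 1. Counts of 10 genes move by single genes, and without read depth no precision can be given for a peak near the threshold.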
